A study of Mus musculus with 12 samples.

Results

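The distal regions in LTR retroelements are H3K27ac regions of 500 bp on chromosomes 1 to 19. The deposited annotation places them more than 3000 bp from the nearest transcription start site (TSS) and in a long terminal repeat (LTR) element. They number 5997, of 104981 regions in all and 71459 distal regions on these chromosomes. The annotation carries 459 element names among them and assigns 3470 to the ERVL-MaLR family, 1325 to ERVK, 756 to ERVL, 397 to ERV1 and 24 to Gypsy, with 25 in an uncertain or unnamed family. By position 55.9% were intergenic, against 40.1% of the distal regions outside LTR elements, and 693 overlapped another region and so share reads with it. No measured value chose them. On either side of the distance limit, 45 LTR regions lay within 200 bp beyond it, with a median of 15.6 tags, and 32 lay within 200 bp short of it, with a median of 9.93 tags. The member nearest to the limit, an MT2B1 copy 3002 bp from the TSS of Cisd2, had a mean of 6.34 tags, and the nearest LTR region left out, an RMER21A copy 2998 bp from that of Lrrc23, 0.66.

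H3K27ac, acetylation of histone H3 at lysine 27, was measured by chromatin immunoprecipitation and sequencing (ChIP-seq) in cortical microglia from mice at postnatal day 30, killed 4 h after a cerebral ventricle on 1 side received interleukin-33 (IL-33), which is a cytokine released from damaged or stressed cells, or vehicle. Mice 1, 2, 5 and 6 were male and mice 3, 4, 7 and 8 female, 4 of either sex, each a separate animal whose microglia were collected by cell sorting, and the 4 input libraries of the male mice were not analysed here. Strain and genotype were not given in the sources used here, and the labels give each mouse's sex but not which agent it received, so the effect of IL-33 is read only from the authors' deposited table of IL-33 against vehicle. Male and female libraries carry different dates and index types in the column headers, so sex and library batch cannot be told apart. The unit is the normalised tag, a read scaled to 10000000 tags per library. Depth was 5160915 to 10019606 reads in male and 2155209 to 4133042 in female libraries. The promoter regions of all 10 microglial markers carried signal, with a summed level of 1550 to 1974 tags in male and 1910 to 2802 in female libraries. Summed over their lists, neuronal promoters (2 of 5 markers with a region) held 0 to 5.81 tags and those of monocytes and neutrophils (1 of 5) 0 to 4.64. Astrocytes (3 of 5 markers) reached 31.9 to 92.0 tags, oligodendrocytes (4 of 5) 23.96 to 107, endothelium (2 of 4) 44.0 to 97.6 and border macrophages (2 of 4) 18.96 to 60.3. Rbfox3, Gfap, Sox10, Cldn5, Ccr2 and Lyve1, 1 marker from each of these lists, had no promoter region. Other markers of the lists carried signal. Slc1a3 (astrocytes) held 31.9 to 92.0 tags, Mog (oligodendrocytes) 2.42 to 92.8, Pecam1 (endothelium) 44.0 to 97.6 and Mrc1 (border macrophages) 17.96 to 51.0. The part of these cells in the results below was not tested.

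LTR retroelements are the remains of retroviruses that entered the germ line and spread by reverse transcription. Each intact copy carried an LTR at either end, which holds the viral promoter and enhancer, and most copies in the genome are now solitary LTRs. Silencing by DNA methylation and by KRAB zinc finger proteins keeps most of them inactive, while some LTRs are known to serve as promoters of long non-coding RNAs or as enhancers, including interferon-inducible enhancers in human cells. H3K27ac marks active promoters and enhancers, and microglia, the resident macrophages of the brain, carry it at many distal sites.

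The sequence of an LTR region itself was not printed, since no genome of the build was used. Where a RefSeq promoter window covers the centre of a distal LTR region, that window shows the sequence at an annotated start of transcription. The element named with a window is the one annotated for its region. The borders of the elements were not known here, so part of a window, and a motif in it, may lie outside the element. RefSeq (GRCm38.p6) windows run from 250 bases before a gene's start to 50 after it, and 40 of them held the centre of 38 of the LTR regions, 39 of the 40 belonging to long non-coding RNAs. By RefSeq these 38 regions lie at a promoter, and they are distal only by the deposited annotation. Of these 38 regions, 28 were tested by the authors' deposited table, where 3 rose and 1 fell. Over all 40352 regions tested there 10.2% rose and 7.99% fell, and counts this small cannot be set apart from those shares. The 6 windows printed are 1 for each of the 4 called regions, the one with the highest mean signal, and the one of an LTRIS2 region. LTRIS2 is a relative of the LTRIS elements described below. The fallen region also holds the window of Tmem144, the 1 protein-coding gene among the 40, which overlaps that of Gm40073 on the other strand, has 1 ETS match and is not printed. Each is given 5′ to 3′ on the strand of its gene, and capitals mark matches on either strand to any of 4 motifs. For the core promoter the TATA box was searched as TATAAA. For the AP-1 family of transcription factors, to which Batf and Batf3 belong, it was TGANTCA. For ETS factors such as Etv6 and the myeloid regulator PU.1 it was GGAAGT. For NF-kB, the factor that IL-1 family receptors activate, it was GGNNTTTCC.
LOC115489488 promoter, MLT1I element, chr2:160620018-160620317, minus strand: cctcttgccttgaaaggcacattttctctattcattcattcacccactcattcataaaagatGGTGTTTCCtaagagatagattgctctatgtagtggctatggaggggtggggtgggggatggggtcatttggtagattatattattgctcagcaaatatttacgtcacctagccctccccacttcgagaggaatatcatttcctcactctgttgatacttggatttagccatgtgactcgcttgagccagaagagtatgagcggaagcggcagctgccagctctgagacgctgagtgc
Gm35768 promoter, ORR1E element, chr6:146170676-146170975, plus strand: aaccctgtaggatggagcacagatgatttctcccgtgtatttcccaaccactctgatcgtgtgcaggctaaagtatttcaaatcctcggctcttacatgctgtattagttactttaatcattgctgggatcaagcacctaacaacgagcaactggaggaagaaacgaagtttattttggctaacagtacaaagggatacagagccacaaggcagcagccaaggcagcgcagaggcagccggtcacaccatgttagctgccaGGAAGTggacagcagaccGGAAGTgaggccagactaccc
Gm33100 promoter, LTR16C element, chr5:96879092-96879391, plus strand: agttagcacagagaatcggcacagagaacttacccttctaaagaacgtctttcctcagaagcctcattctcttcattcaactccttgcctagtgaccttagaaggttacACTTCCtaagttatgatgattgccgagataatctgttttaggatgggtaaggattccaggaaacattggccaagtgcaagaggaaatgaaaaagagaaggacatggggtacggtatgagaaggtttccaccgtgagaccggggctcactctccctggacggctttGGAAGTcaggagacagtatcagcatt
Gm40073 promoter, MLT1F element, chr3:79852623-79852922, plus strand: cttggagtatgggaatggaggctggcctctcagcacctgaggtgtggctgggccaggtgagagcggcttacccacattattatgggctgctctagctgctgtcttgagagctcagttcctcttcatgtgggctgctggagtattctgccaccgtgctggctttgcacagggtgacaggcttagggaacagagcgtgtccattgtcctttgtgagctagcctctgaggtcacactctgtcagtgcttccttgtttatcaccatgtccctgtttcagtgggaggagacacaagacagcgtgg
Gm46165 promoter, MTD-int element, chr1:154103613-154103912, plus strand: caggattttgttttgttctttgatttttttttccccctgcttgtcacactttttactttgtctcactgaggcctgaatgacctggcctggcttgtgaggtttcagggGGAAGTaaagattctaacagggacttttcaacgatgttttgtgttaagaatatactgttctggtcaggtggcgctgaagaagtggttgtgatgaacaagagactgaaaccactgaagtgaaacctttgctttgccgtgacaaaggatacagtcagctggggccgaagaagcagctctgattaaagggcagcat
Gm40645 promoter, LTRIS2 element, chr10:51526214-51526513, minus strand: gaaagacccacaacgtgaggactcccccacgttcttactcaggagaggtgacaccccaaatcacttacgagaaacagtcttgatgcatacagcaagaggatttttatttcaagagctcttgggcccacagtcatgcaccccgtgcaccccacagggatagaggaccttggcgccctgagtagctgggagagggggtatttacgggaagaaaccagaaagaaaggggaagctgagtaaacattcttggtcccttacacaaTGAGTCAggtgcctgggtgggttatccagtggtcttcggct

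Among these printed windows, LOC115489488 held 1 NF-kB match, Gm35768 and Gm33100 2 ETS matches each, Gm46165 1 ETS match, Gm40645 1 AP-1 match and Gm40073 none. Over the 40 windows, ETS matches were found in 18, AP-1 matches in 6, NF-kB matches in 4 and TATA boxes in 2. All 32851 RefSeq windows of this length held them in 23.8%, 7.81%, 5.82% and 13.6% of cases. A match is a description of the letters and not a binding site. At the MLT1I region of LOC115489488, mice 1, 2, 5 and 6 held 64.9, 41.2, 30.4 and 17.4 tags and mice 3, 4, 7 and 8 held 61.6, 181, 47.4 and 9.28. Mouse 4 was the highest and mouse 8 the lowest, and the male and female libraries overlapped. In the authors' deposited table it rose by 1.43 ± 0.39 log2 units (standard error, adjusted p = 0.00269). The authors' deposited table gave 0.65 for the ORR1E region of Gm35768 (adjusted p = 0.0107), 0.60 for the LTR16C region of Gm33100 (adjusted p = 0.0339) and -0.98 for the MLT1F region of Gm40073 (adjusted p = 0.0453). The MTD-int region of Gm46165 held 227, 160, 216 and 242 tags in mice 1, 2, 5 and 6 and 199.5, 380, 351 and 427 in mice 3, 4, 7 and 8. Mouse 2 was the lowest and mouse 8 the highest, the sexes overlapped through mouse 3, and the region stood at -0.32 per the authors' deposited table (adjusted p = 0.228).

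Distal LTR regions responded to IL-33 in both directions and at about the rate of all regions. The authors' deposited table holds 4752 of the 5997, of which 3368 passed its filter on low levels and have an adjusted p. At an adjusted p under 0.05, 334 rose and 240 fell, or 9.92% and 7.13%, while 2794 were not called in the authors' deposited table. Over all 40352 regions with an adjusted p the shares in the authors' deposited table were 10.2% and 7.99%, so the members' shares lie near the background. Their median log2 fold change was 4.57e-05, against -0.01 over all regions, and their 10th and 90th percentiles were -0.998 and 1.12 in the authors' deposited table. The 334 rises had a median of 1.504 and the 240 falls a median of -1.26, with 85 rises and 24 falls of at least 2 log2 units, in the authors' deposited table. Distal regions in LINE elements, retrotransposons without LTRs, rose in 10.9% and fell in 6.86% of 1617 cases, and those in SINE elements, short non-autonomous ones, in 9.86% and 7.93% of 1653 in the authors' deposited table. Distal regions outside repeats rose in 10.5% and fell in 8.29% of 32076 in the authors' deposited table. No test of the difference between these classes was made. Of 2525 LTR regions found in both peak sets 195 rose and 184 fell by the authors' deposited table (7.72% and 7.29%). Other distal regions found in both peak sets were near this, with 8.27% and 8.72% of 27886 there. The sort collects many cells, so more signal per cell and a different mix of cells cannot be told apart.

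**Figure D1:**
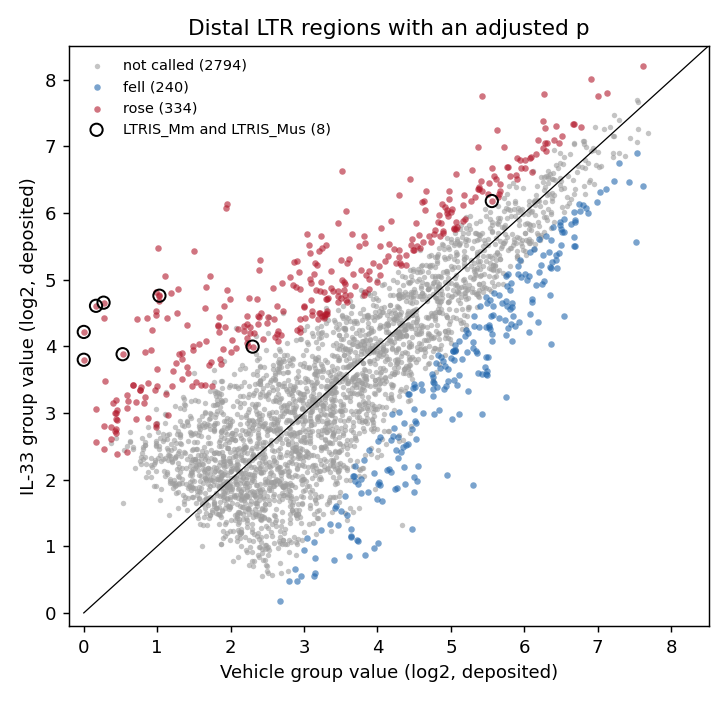
Group values (log2) of IL-33 against vehicle in the authors' deposited table for the 3368 distal LTR regions with an adjusted p, 1 point each, with red for 334 risen, blue for 240 fallen and grey for 2794 regions not called, and rings for 8 LTRIS_Mm and LTRIS_Mus regions. The line marks equal values. Most regions lie near it, and 6 of the 8 ringed regions lie at the left edge, with vehicle values of 1.03 or less.

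By family the share of rises ranged from 6.796% in ERVK to 18.3% in ERV1 in the authors' deposited table, among the families with more than 100 regions that have an adjusted p. Falls ranged from 4.46% in ERV1 to 8.24% in ERVL in the authors' deposited table. These are counts over regions that may share a locus, and no test of the difference between families was made.

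**Figure D2:**
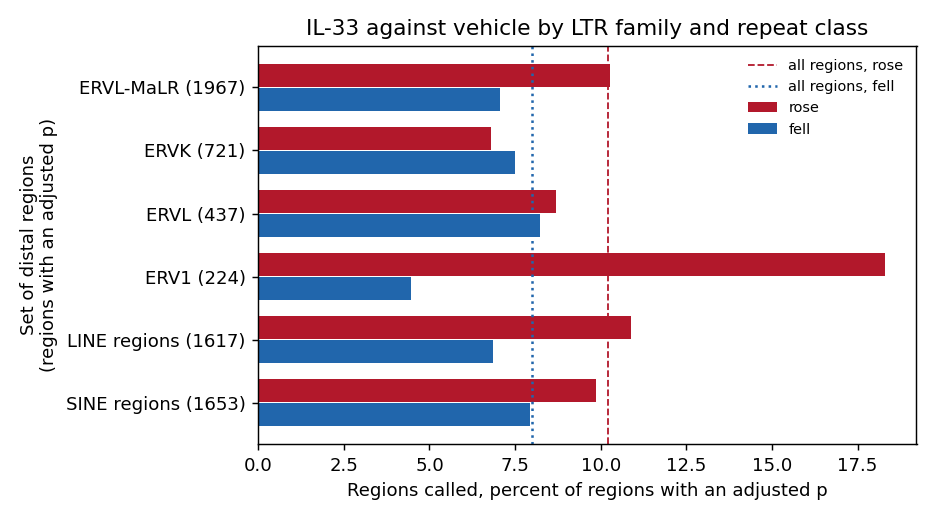
Percent of regions with an adjusted p that rose (red) or fell (blue) with IL-33 in the authors' deposited table, for 4 LTR families and for distal LINE and SINE regions, with the number of regions in brackets. The vertical lines give the 10.2% (dashed, rises) and 7.99% (dotted, falls) of all regions. ERV1 stands farthest from the lines, at 18.3% and 4.46%.

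ERVL-MaLR elements are old non-autonomous relatives of ERVL and include the rodent MT and ORR1 elements and the MLT1 elements shared among mammals. They gave most of the calls, 202 rises and 139 falls of 1967 in the authors' deposited table (10.3% and 7.07%). MT elements rose in 84 and fell in 65 of 872 cases, ORR1 elements in 75 and 42 of 754, and MLT1 elements in 42 and 31 of 337 in the authors' deposited table. The region with the largest rise of all members was an MTB_Mm copy (chromosome 16, 55588707 to 55589207, intergenic) 94.2 kb from the microRNA gene Mir5118. Mice 1, 2, 5 and 6 held 88.8, 85.9, 1.05 and 1.94 tags there and mice 3, 4, 7 and 8 held 85.1, 89.5, 0 and 9.28. Mice 1, 2, 3 and 4 were high and the other 4 low, and male and female libraries overlapped. The authors' deposited table gave 4.28 ± 0.50 (standard error, adjusted p = 5.95e-15), and its nearest distal region outside LTRs, 12.2 kb away, stood at -0.54 (adjusted p = 0.373).

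An MLT1D copy 3.74 kb from the TSS of Slc31a2, which encodes a copper transporter (chromosome 4, 62282438 to 62282938, intergenic), held 168, 79.0, 5.24 and 7.75 tags in mice 1, 2, 5 and 6 and 103, 230, 5.57 and 4.64 in female mice 3, 4, 7 and 8. The same 4 mice were high as at the MTB_Mm copy. It rose by 3.99 ± 0.42 per the authors' deposited table (adjusted p = 1.29e-18). An MTD copy (chromosome 3, 133627157 to 133627657, intergenic) 83.0 kb from Tet2, the gene of a methylcytosine dioxygenase, rose by 3.86 ± 0.60 (adjusted p = 9.46e-09), and an MLT1N2 copy in an intron 30.9 kb from the TSS of Map2k6, the gene of a kinase that activates p38, by 3.54 ± 0.38 (adjusted p = 9.06e-18) from the authors' deposited table. The smallest adjusted p of the family belonged to an ORR1D2 copy in an intron 136 kb from the TSS of Etv6, an ETS-family repressor gene (chromosome 6, 134171276 to 134171776). Its libraries held 415, 297, 103 and 58.1 tags in mice 1, 2, 5 and 6 and 458, 607, 94.8 and 92.8 in mice 3, 4, 7 and 8. Every value of mice 1, 2, 3 and 4 lay above every value of the other 4, and the sexes overlapped. The authors' deposited table gave 2.24 ± 0.19 (adjusted p = 7.63e-27).

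The largest falls of all members were also in this family, at MTEa copies near D7Ertd443e (chromosome 7, 134519545 to 134520045, intergenic) and near Prok1, a prokineticin gene. The first held 4.99, 16.0, 75.5 and 73.6 tags in mice 1, 2, 5 and 6 and 8.80, 0, 75.3 and 88.2 in mice 3, 4, 7 and 8. Here mice 5, 6, 7 and 8 were high and the other 4 low. The authors' deposited table gave -2.83 ± 0.42 (adjusted p = 2.15e-09) for it and -2.68 ± 0.56 (adjusted p = 3.99e-05) for the copy near Prok1. Within ERVL-MaLR the fall with the smallest adjusted p was an MTB_Mm copy in an intron near Phlpp2, a protein phosphatase gene, at -2.14 ± 0.31 per the authors' deposited table (adjusted p = 4.63e-10). MTB_Mm copies thus both rose and fell, and over the 39 with an adjusted p 3 rose and 4 fell by the authors' deposited table.

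ERVK elements, which include the youngest mouse families such as intracisternal A particles (IAP), rose in 49 and fell in 54 of 721 cases by the authors' deposited table (6.796% and 7.49%). IAP elements rose in 3 and fell in 2 of 30 in the authors' deposited table. Near-identical copies are common among young elements, and how reads that fit several copies were handled was not given in the sources used here, so signal could have been split among copies. The rise with the smallest adjusted p was at an RLTR20B5_MM copy 28.5 kb from Noct, the gene of the circadian phosphatase nocturnin (chromosome 3, 51195688 to 51196188, intergenic). Mice 1, 2, 5 and 6 held 70.9, 43.5, 2.10 and 3.88 tags and mice 3, 4, 7 and 8 held 82.2, 38.7, 0 and 9.28. Mice 1, 2, 3 and 4 were again high. The authors' deposited table gave 3.39 ± 0.51 (adjusted p = 4.61e-09). In the other direction, an RMER19B copy in an intron near 1700110C19Rik (chromosome 17, 10327703 to 10328203) held 86.8, 97.4, 300 and 349 tags in mice 1, 2, 5 and 6 and 96.8, 89.5, 346 and 520 in mice 3, 4, 7 and 8. Mice 5 to 8 were the high ones and the sexes overlapped, and the authors' deposited table gave -1.92 ± 0.19 (adjusted p = 1.26e-20). Larger falls with less signal stood at an RMER17C-int copy in an intron near Klrb1b, a natural killer cell receptor gene (-2.39, adjusted p = 5.67e-05), and at an MLTR11B copy in an intron near Ppp6r2, a phosphatase subunit gene (-2.36, adjusted p = 2.60e-05), from the authors' deposited table.

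ERVL elements rose in 38 and fell in 36 of 437 cases by the authors' deposited table (8.70% and 8.24%). Within them, a group of MT2 LTRs and MERVL internal parts had 1 rise and 5 falls of 54 in the authors' deposited table. The LTRs of this group were named MT2A, MT2B, MT2B1 and MT2B2. The rise with the smallest adjusted p was an RLTR28 copy in an intron 8.07 kb from the TSS of Ceacam18 (chromosome 7, 43642557 to 43643057). It held 131, 91.6, 11.5 and 25.2 tags in mice 1, 2, 5 and 6 and 135, 169, 25.1 and 32.5 in mice 3, 4, 7 and 8, so mice 1 to 4 were high in both sexes. The authors' deposited table gave 2.44 ± 0.32 (adjusted p = 2.40e-12). Of 36 RLTR28 regions 5 rose and 0 fell by the authors' deposited table (6 and 4 at an unadjusted p under 0.05). The fall with the smallest adjusted p was an LTR33 copy 54.8 kb from Slc22a16, a carnitine transporter gene, at -1.94 ± 0.27 per the authors' deposited table (adjusted p = 4.67e-11). The largest falls were RMER15 copies, at -2.65 ± 0.58 near Tjp1, the gene of the tight junction protein ZO-1 (adjusted p = 0.000107), and at -2.43 ± 0.62 in an intron near Vwc2l (adjusted p = 0.00126) from the authors' deposited table.

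ERV1 elements, related to gammaretroviruses such as murine leukemia virus, rose in 41 and fell in 10 of 224 cases by the authors' deposited table (18.3% and 4.46%). Their median log2 fold change was 0.08 and their 90th percentile was 1.54 in the authors' deposited table. With overlapping regions left out 23 rises and 7 falls remained by the authors' deposited table, and 15 of the rises and 9 of the falls were in regions found in both peak sets. Several kinds of element contributed. MLTR14 rose in 8 and fell in 2 of 44 cases, LTRIS_Mm and LTRIS_Mus rose in 4 each, and MuRRS4-int rose in 3 in the authors' deposited table. The smallest adjusted p belonged to an RMER5 copy 12.1 kb from Batf3, a gene of the AP-1 transcription factor family (chromosome 1, 191086026 to 191086526, intergenic). Mice 1, 2, 5 and 6 held 422, 309, 158 and 159 tags and mice 3, 4, 7 and 8 held 502, 578, 184 and 121. Mice 1 to 4 were all higher than mice 5 to 8, and the sexes overlapped. The authors' deposited table gave 1.44 ± 0.17 (adjusted p = 1.26e-14). The fall with the smallest adjusted p was another RMER5 copy, near Papd4, which encodes a poly(A) polymerase, at -1.25 ± 0.25 per the authors' deposited table (adjusted p = 1.97e-05).

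LTRIS_Mm and LTRIS_Mus, the LTRs of the mouse MuRRS retrovirus-related elements, were singled out after their values were seen. They make up 13 members, 6 LTRIS_Mm and 7 LTRIS_Mus, of which 11 are intergenic and 6 overlap another region. All 13 were found in the peak set of the IL-33 libraries and not in that of the vehicle libraries, which is no independent evidence, since the peak sets and the comparison come from the same libraries. All 8 with an adjusted p rose, by 0.61 to 4.08 with a median of 3.51, in the authors' deposited table. At 6 of the 8 the vehicle value was 1.03 or less, so they passed its filter on low levels through the IL-33 group. A rise at these 6 was largely fixed by that filter and is no independent evidence. Of the others, 4 had no adjusted p and 1 is outside the comparison. The 2 regions near Slc31a2 overlap each other and are 1 locus. With every overlapping region left out 2 rises remained, those near Ctu1 and Rnf180, by the authors' deposited table.

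At the LTRIS_Mus pair near Slc31a2 (chromosome 4, 62266083 to 62266583 and 62266481 to 62266981, 20.1 and 19.7 kb from the TSS), the first held 23.95, 33.2, 0 and 0 tags in mice 1, 2, 5 and 6 and 38.1, 50.8, 0 and 0 in mice 3, 4, 7 and 8. The second held 52.9, 35.5, 1.05 and 0 tags in the male mice and 70.4, 36.3, 0 and 0 in the female mice in the same order. Mice 1, 2, 3 and 4 carried signal and mice 5, 6, 7 and 8 nearly none. A count of 0 allows up to 3 reads in a library, which is 3.15, 5.81, 8.36 and 13.9 tags in mice 5, 6, 7 and 8, counting error only. The authors' deposited table gave 3.93 ± 0.63 (adjusted p = 2.50e-08) for the first, whose vehicle value is listed at 0, and 4.08 ± 0.59 (adjusted p = 7.67e-10) for the second. Near Unc93a (chromosome 17, 13145285 to 13145785, intergenic), an LTRIS_Mus copy held 47.9, 26.3, 0 and 1.94 tags in mice 1, 2, 5 and 6 and 64.6, 67.8, 0 and 0 in mice 3, 4, 7 and 8, again with mice 1 to 4 high. The authors' deposited table gave 4.08 ± 0.59 (adjusted p = 5.24e-10).

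Near Ctu1, which encodes an enzyme of tRNA thiolation (chromosome 7, 43667514 to 43668014, intergenic), an LTRIS_Mm copy held 31.9, 11.5, 0 and 0 tags in mice 1, 2, 5 and 6 and 38.1, 31.5, 0 and 0 in mice 3, 4, 7 and 8. It rose by 3.54 ± 0.64 per the authors' deposited table (adjusted p = 1.61e-06), with a vehicle value listed at 0. The LTRIS_Mus copy near Gm9992 rose by 3.47 ± 0.53, the LTRIS_Mm copy near Rnf180, a ubiquitin ligase gene, by 2.88 ± 0.60, and that near Hs6st1, a heparan sulfate sulfotransferase gene, by 1.68 ± 0.50 in the authors' deposited table. The LTRIS_Mm copy in an intron near Itgb5, an integrin gene, carried signal in every library, with 137, 126, 79.7 and 56.2 tags in mice 1, 2, 5 and 6 and 161, 152, 131 and 130 in mice 3, 4, 7 and 8. Mice 1 to 4 were higher than mice 5 and 6 but close to mice 7 and 8, and it rose by 0.61 ± 0.23 per the authors' deposited table (adjusted p = 0.0451). No standard error in the authors' deposited table exceeds 0.68, also where a group has no read.

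Summed over the 13 regions, male mice 1, 2, 5 and 6 held 455, 336, 98.6 and 71.7 tags and female mice 3, 4, 7 and 8 held 522, 523, 148 and 153. The related elements did not all move. An LTRIS2 and an LTRIS3 copy 35.4 and 40.1 kb from Lilrb4a, the gene of an inhibitory immunoglobulin-like receptor, stood at 0.23 ± 0.18 (adjusted p = 0.435) and 0.11 ± 0.30 (adjusted p = 0.856) from the authors' deposited table. The LTRIS2 copy, the centre of which lies in the Gm40645 window printed above, held 140 to 205 tags in male and 176 to 235 in female libraries. Between them lie MuRRS4-int regions, of which 3 rose by 0.66 to 0.71 in the authors' deposited table. Over all MuRRS internal parts 3 of 12 rose and 0 fell by the authors' deposited table (3 and 0 at an unadjusted p under 0.05). Another 3 LTRIS regions are no members, 2 because they lie near a TSS and 1 because it is on an unplaced sequence, where the authors' deposited table gives 0.38 (adjusted p = 0.507).

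**Figure D3:**
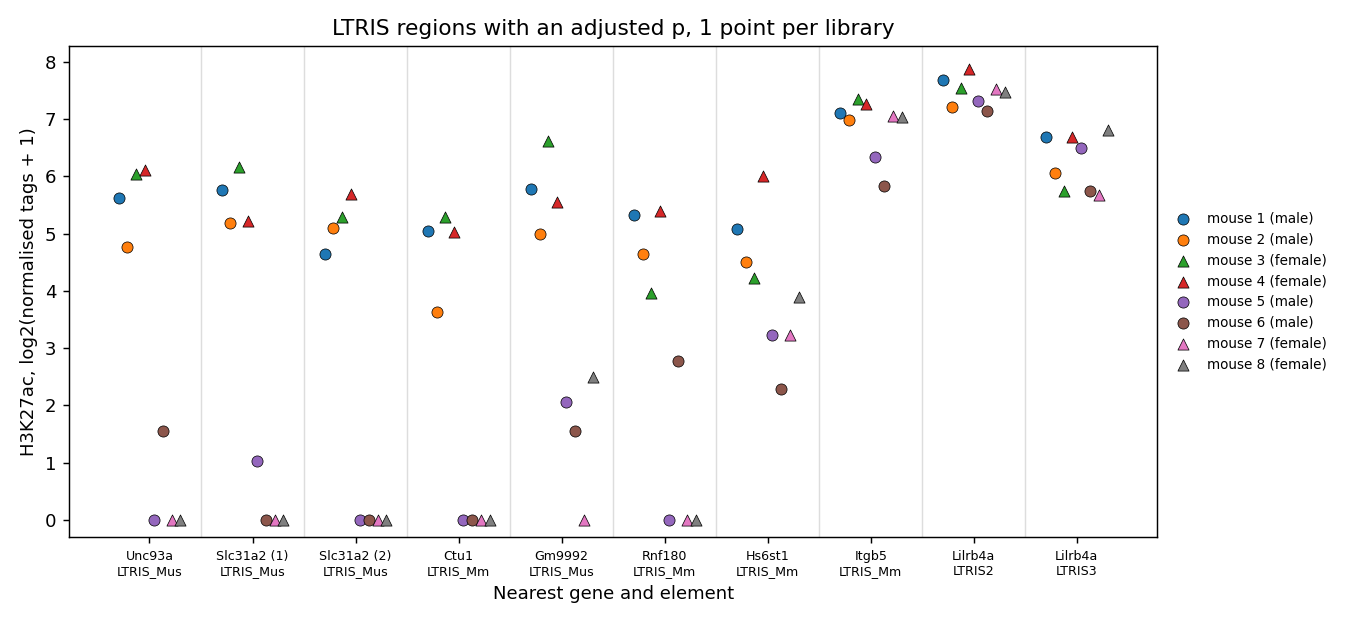
H3K27ac as log2(normalised tags + 1) at the 10 LTRIS regions with an adjusted p in the authors' deposited table, 1 point per library, circles for male and triangles for female mice, ordered by log2 fold change. At the 5 regions on the left mice 1 to 4 lie above 11 tags and mice 5 to 8 at 4.64 tags or fewer, while at the LTRIS2 and LTRIS3 regions all 8 libraries carry signal, from 50.2 to 235 tags.

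Among the small groups, 1 of 9 Gypsy regions rose, an LTR104_Mam copy 5.17 kb from Cd180, the gene of a Toll-like receptor relative, at 0.95 ± 0.24 per the authors' deposited table (adjusted p = 0.000963), and 0 fell (0 at an unadjusted p under 0.05). Of 10 regions in uncertain or unnamed families 3 rose and 1 fell by the authors' deposited table. The rise with the smallest adjusted p was an LTR85b copy near 2610301B20Rik, at 1.28 ± 0.25 per the authors' deposited table (adjusted p = 9.97e-06).

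Single element names varied more than families, as small groups do. For 35 names at least 20 regions had an adjusted p, 2096 regions together. The highest shares of rises in the authors' deposited table were 20% for ORR1C2 (5 of 25), 18.4% for MLT1B (7 of 38), 18.2% for MLTR14 (8 of 44), 17.2% for ORR1D1 (5 of 29) and 16.4% for ORR1F (19 of 116). The highest shares of falls in the authors' deposited table were 29.0% for MLT1C (9 of 31), 23.3% for MLTR11B (7 of 30), 14.5% for RMER15 (9 of 62), 14.3% for RMER6B (3 of 21) and 13.2% for MLT1B (5 of 38). MLT1B was thus among the first 5 in both directions. MLT1C had 0 rises (1 at an unadjusted p under 0.05), RMER6B 0 rises (2 unadjusted) and RMER19B 0 rises of 58 (2 unadjusted), while ORR1C2 had 0 falls (0 unadjusted) in the authors' deposited table. The most frequent name, MTD, rose in 41 and fell in 24 of 355 cases by the authors' deposited table (11.5% and 6.76%). Internal parts of elements rose in 25 and fell in 24 of 257, and LTR parts in 309 and 216 of 3111, in the authors' deposited table.

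**Figure D4:**
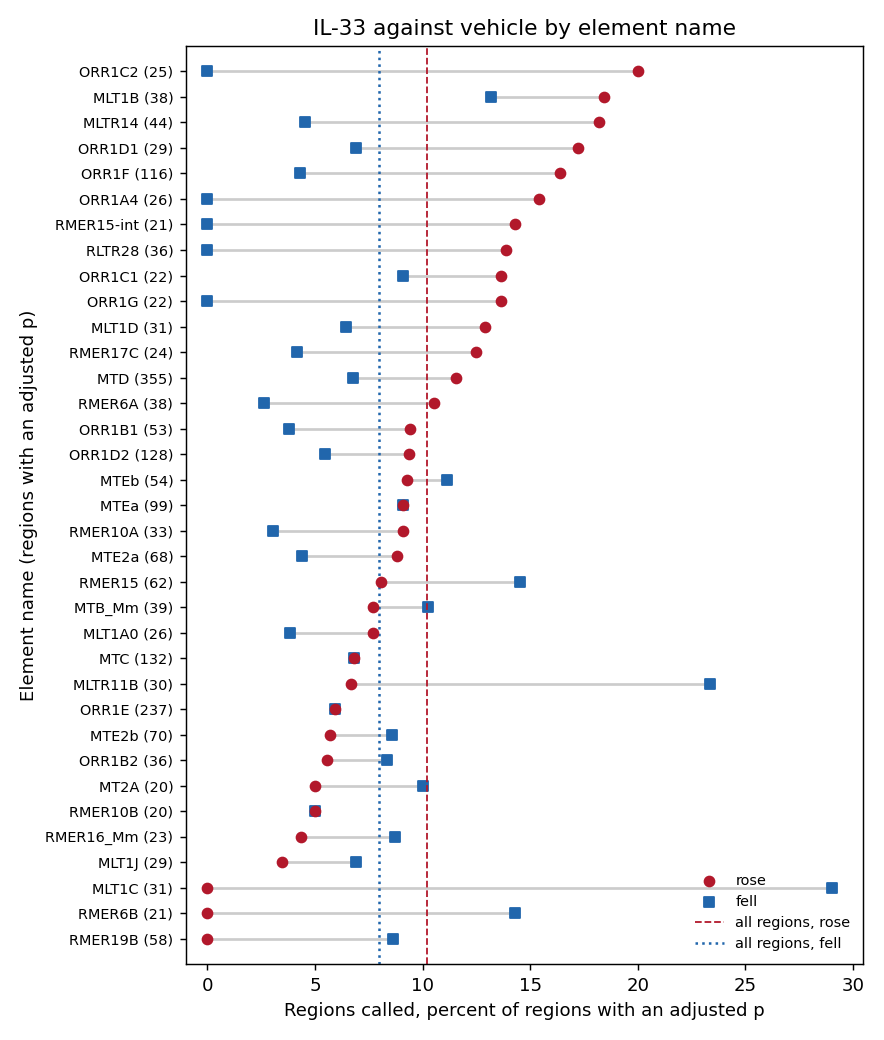
Percent of regions that rose (red circles) or fell (blue squares) with IL-33 in the authors' deposited table for the 35 element names with at least 20 regions that have an adjusted p, with the number of regions in brackets. Vertical lines give 10.2% and 7.99% over all regions. ORR1C2 is at the top with 20% rises and MLT1C has the highest share of falls, 29.0%.

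The 574 called LTR regions lay nearest to 486 genes, 271 with rises only, 210 with falls only and 5 with both. Most of these genes held a single called LTR region and could not show both directions, so the 5 say little about genes. The nearest gene is the one given in the deposited annotation, which need not be the gene a region acts on. Near genes of NF-kB targets and feedback, 3 LTR regions rose and 0 fell of 11 in the authors' deposited table (5 and 0 at an unadjusted p under 0.05), beside 94 rises and 11 falls of 208 regions of any kind near these genes. The rises were an MLT1A0 copy near Cd83, the gene of a surface marker of activated antigen-presenting cells, at 2.65 ± 0.48, an ORR1C2 copy near Nfkb1, the gene of an NF-kB subunit precursor, at 2.46 ± 0.62, and an ORR1E copy near Traf1, a signalling adaptor gene, at 1.04 ± 0.28 in the authors' deposited table. The copy near Cd83 (chromosome 13, 43775262 to 43775762, intergenic) held 33.9, 38.9, 6.29 and 3.88 tags in mice 1, 2, 5 and 6 and 44.0, 111, 5.57 and 9.28 in mice 3, 4, 7 and 8. Mice 1 to 4 were high and the sexes overlapped.

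Near AP-1 and immediate early genes, 3 of 13 LTR regions rose and 0 fell by the authors' deposited table (3 and 1 at an unadjusted p under 0.05), beside 35 and 1 of 163 regions of any kind. Besides the RMER5 copy near Batf3 these were an MTD copy near the same gene at 1.14 ± 0.36 and an MTC copy near Batf, another AP-1 family gene, at 1.70 ± 0.37 in the authors' deposited table. Near cytokine and chemokine genes 1 of 8 rose and 0 fell by the authors' deposited table (1 and 0 at an unadjusted p under 0.05), an RMER6A copy near the chemokine gene Ccl12 at 1.13 ± 0.38 (adjusted p = 0.0207), beside 48 and 2 of 107 regions of any kind. Near pattern recognition receptor genes 3 rose and 1 fell of 16 in the authors' deposited table, beside 23 and 6 of 144. An MMERVK9C_I-int copy near the receptor gene Tlr2 stood at 2.34 ± 0.65 (adjusted p = 0.00337), copies near the scavenger receptor genes Marco and Msr1 at 1.18 and 0.86, and a copy near Tlr3, which encodes a sensor of double-stranded RNA, at -0.77 in the authors' deposited table.

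Near homeostatic microglial genes, 2 of 60 LTR regions rose and 5 fell by the authors' deposited table, beside 50 and 66 of 624 regions of any kind. An MTEb copy in an intron near Cx3cr1, the fractalkine receptor gene, held 161, 115, 49.3 and 44.6 tags in mice 1, 2, 5 and 6 and 123, 201, 75.3 and 88.2 in mice 3, 4, 7 and 8. Mice 1 to 4 were above mice 5 to 8, and it rose by 1.26 ± 0.25 per the authors' deposited table (adjusted p = 9.85e-06). The other rise was an MTC copy near Tgfbr1, a TGF-beta receptor gene, at 1.62 ± 0.49, whereas an ORR1E copy near Tgfbr2, the gene of its partner, fell by 1.61 ± 0.46 in the authors' deposited table. Falls also stood at an ORR1B1 copy near the lectin gene Siglech (-1.27 ± 0.26), an MTD copy near Fcrls (-0.98 ± 0.31) and an MT2B1 copy near Siglech (-0.65 ± 0.23) in the authors' deposited table. Near interferon response genes 2 rose and 2 fell of 11 in the authors' deposited table, beside 9 and 13 of 104. These were an MTB copy near Bst2, the tetherin gene (1.25), an MLT1D copy near Irf8 (1.26), an MTD copy in an intron near Irf1 (-1.59) and an ORR1F copy near Irf2 (-0.83), the last 3 being genes of interferon regulatory factors, in the authors' deposited table. Near genes that silence retroelements 0 rose and 1 fell of 4 in the authors' deposited table (0 and 1 at an unadjusted p under 0.05), an RLTR49 copy near Morc3 at -0.66 ± 0.24 (adjusted p = 0.0316), beside 2 and 8 of 72.

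Some genes had several called LTR regions. Lilrb4a had 5 rises among 9 LTR regions with an adjusted p, Etv6 3 among 5, Slc31a2 3 among 6, Lcp2, an adaptor gene of immune receptor signalling, 3 among 5 and Ly6e, the gene of a surface protein with a role in viral entry, 3 among 7 in the authors' deposited table. Falls repeated at Tm2d1, with 3 of 3, and at Mvb12b, the gene of a subunit of the ESCRT-I sorting complex, with 3 of 5, in the authors' deposited table. A530072M11Rik and Hs6st1 also had 3 rises among 5 each, Pacsin2 3 among 4 and Gm19582 3 among 3 there. All these genes were taken for their number of calls, and over all regions 10.2% rose and 7.99% fell. Regions of 1 gene lie close together and are no independent replicates.

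Called LTR regions often had a neighbour called in the same direction. For 1458 LTR regions the nearest distal region outside LTR elements with an adjusted p lay 500 to 2500 bp away, centre to centre. Next to 182 risen LTR regions, 97 neighbours rose and 85 were not called in the authors' deposited table. Next to 115 fallen ones, 44 neighbours fell, 1 rose and 70 were not called in the authors' deposited table. Over all 1458 pairs, 180 neighbours rose and 128 fell, and the log2 fold changes of both correlated at r = 0.752 in the authors' deposited table, a description across regions that share libraries and neighbourhood. With the neighbour more than 10000 bp away, 8 of 31 neighbours of risen LTR regions rose and 1 fell, and 7 of 31 neighbours of fallen ones fell by the authors' deposited table. Over all 745 pairs at this distance, 41 neighbours rose and 68 fell there, and the log2 fold changes correlated at r = 0.256. The LTRIS_Mm copy near Ctu1 had a neighbour 529 bp away at 3.71 and the first LTRIS_Mus copy near Slc31a2 one 712 bp away at 3.56 in the authors' deposited table. The risen LTRIS_Mm copy near Hs6st1 had its neighbour 2553 bp away at -0.30 (adjusted p = 0.796) from the authors' deposited table.

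**Figure D5:**
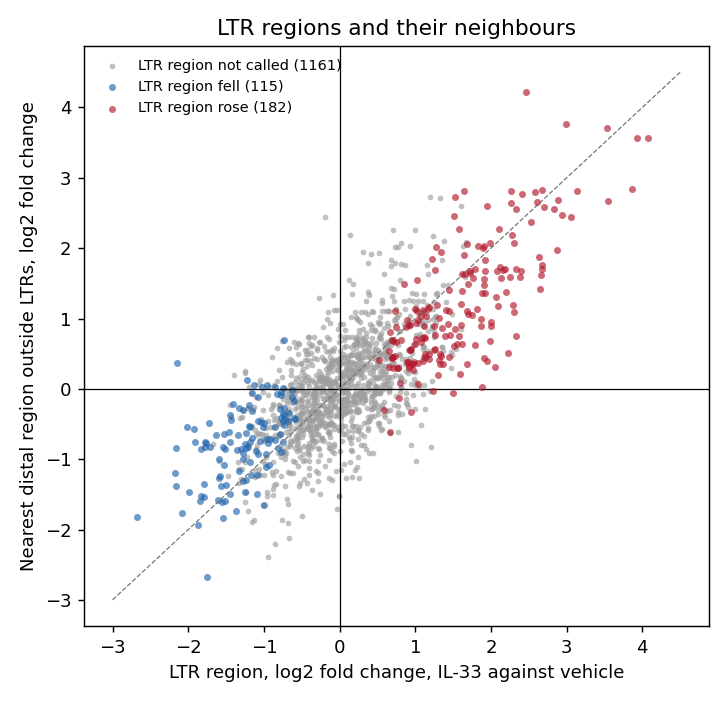
Log2 fold change, IL-33 against vehicle, of 1458 distal LTR regions (x axis) and of their nearest distal region outside LTR elements 500 to 2500 bp away (y axis), both from the authors' deposited table, with 182 risen LTR regions in red, 115 fallen ones in blue and the others in grey. The dashed line marks equal values, and most coloured points lie in the quadrants where both have the same sign.

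By distance to the TSS, the share of falls was highest in the farthest LTR regions, with no test of the difference. As the authors' deposited table has it, 81 of 787 LTR regions 3 to 10 kb from a TSS rose and 46 fell, and 226 of 2236 rose and 155 fell at 10 to 100 kb. Beyond 100 kb 27 of 345 rose (7.83%) and 39 fell (11.3%), against 8.52% and 10.8% of other distal regions in the authors' deposited table. Intergenic LTR regions rose in 11.04% and fell in 8.03% of 1794 cases and intronic ones in 8.64% and 6.10% of 1574 in the authors' deposited table. Other distal regions rose in 11.8% and fell in 8.38% of 13256 intergenic cases there, and in 9.62% and 7.98% of 20742 intronic ones. LTR regions found only in the IL-33 peak set rose in 20.7% and fell in 3.91% of 639 cases, and those found only in the vehicle peak set in 3.43% and 15.2% of 204, in the authors' deposited table, which shares its libraries with the peak sets. The shares of other distal regions there were near these. They were 22.6% and 3.16% of 5923 in the IL-33 peak set only, and 4.42% and 14.0% of 2351 in the vehicle peak set only.

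The distal LTR regions with the most signal were an MLT1B copy near Alg8, a glycosylation enzyme gene (mean 518 tags), an RLTR14 copy near E230029C05Rik (416), an RMER15 copy near Dtnbp1, the dysbindin gene (397), an ORR1F copy near Herpud1, a gene of the endoplasmic reticulum stress response (390), an MTC copy in an intron near Inpp5d, the gene of the lipid phosphatase SHIP1 (382), and an ORR1E copy near Gm19510 (376). All 8 libraries carried signal at each of them. At the ORR1F copy near Herpud1 mice 1, 2, 5 and 6 held 450, 389, 192 and 205 tags and mice 3, 4, 7 and 8 held 505, 789, 312 and 274. Mice 1 to 4 were above mice 5 to 8 and the sexes overlapped, and it rose by 1.11 ± 0.15 per the authors' deposited table (adjusted p = 2.54e-11). The copies near Gm19510 and Alg8 rose by 0.67 ± 0.17 and 0.63 ± 0.16, and those near E230029C05Rik, Dtnbp1 and Inpp5d had values of 0.18 (adjusted p = 0.555), 0.11 (0.657) and -0.43 (0.367) from the authors' deposited table.

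Distal LTR regions took a nearly constant share of the signal. Per library they held 7.07 to 7.37% of the tags in autosomal distal regions, 7.15% ± 0.08 (SD, n = 4) in male and 7.27% ± 0.13 (SD, n = 4) in female mice. ERVL-MaLR held 4.11% ± 0.07, ERVK 1.47% ± 0.06, ERVL 1.04% ± 0.03, ERV1 0.537% ± 0.048 and Gypsy 0.0267% ± 0.0019 (SD, n = 8). The share of ERV1 was 0.576, 0.583, 0.495 and 0.462% in male mice 1, 2, 5 and 6 and 0.593, 0.558, 0.505 and 0.520% in female mice 3, 4, 7 and 8, highest in mice 1 to 4 with the sexes overlapping. For ERVK the same mice were lower, with 1.39, 1.46, 1.503 and 1.498% in the male and 1.47, 1.38, 1.54 and 1.55% in the female mice in the same order. Many regions held few reads. In male libraries 11.8 to 18.5% of the LTR regions held no read and in female libraries 31.0 to 39.2%, with the highest share in mouse 4, the deepest female library. Of all members 2401 held a read in all 8 libraries and 29 in none.

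Between the sexes few distal LTR regions were called. For 2534 whose mean reached 10 tags, limma called 0 lower and 2 higher in female libraries at an adjusted p under 0.05, beside 1.87% lower and 0.15% higher of all 53348 regions tested, which include sex chromosomes and promoters. Among the 31183 autosomal distal regions tested, 43 were lower and 38 higher, so the counts in LTR regions lie near those of their own class. At an unadjusted p under 0.05 limma had 5 lower and 222 higher among the 2534 LTR regions. Among the 31183 autosomal distal regions it had 180 lower and 2783 higher. The fit had no term for differences among mice of 1 sex, which were large. Chi-square per degree of freedom was 1.72 for mice 5 and 6, 1.88 for mice 7 and 8, 2.36 for mice 1 and 2 and 3.21 for mice 3 and 4, but 3.94 to 6.82 for the other pairs within a sex. Reads recovered from the tags gave 0 lower and 0 higher with edgeR (13 and 55 at an unadjusted p under 0.05) and 0 lower and 1 higher with DESeq2 (13 and 57). The median female minus male difference was 0.32 log2 units over the LTR regions, 0.30 over autosomal distal regions and 0.22 over all regions. The balance depends on the scaling, since with TMM rescaling it was 0.01 over the LTR regions and -0.09 over all regions. An RMER17C copy 20.4 kb from Esyt3, the gene of a membrane tether (chromosome 9, 99378692 to 99379192, intergenic), held 94.8, 113, 109 and 101 tags in mice 1, 2, 5 and 6 and 197, 201, 234 and 181 in female mice 3, 4, 7 and 8. The sexes did not overlap, and the difference was 0.95 ± 0.21 log2 units (limma, adjusted p = 0.0358). An MTD copy in an intron 148 kb from the TSS of Man1a, a mannosidase gene (chromosome 10, 53927593 to 53928093), held 128, 98.5, 167 and 180 tags in the male and 229, 298, 309 and 404 in the female mice, also without overlap. The difference was 1.12 ± 0.25 (limma, adjusted p = 0.0392). Both calls were lost without mouse 1, without 2, without 5, without 6, without 7 and without 8, each left out in turn, with adjusted p of 0.0609 to 0.135 for Esyt3 and 0.0658 to 0.141 for Man1a in limma, and that of Man1a also without mouse 4 (0.0598). TMM, quantile normalisation and edgeR also ended both, with adjusted p of 0.122 to 0.192 for Esyt3 and 0.0885 to 0.104 for Man1a. Neither region was called by IL-33 in the authors' deposited table (-0.02 and -0.48, adjusted p = 0.966 and 0.148).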

How the data were processed

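H3K27ac was measured in 8 libraries, 1 per mouse. The submitters' processing notes name Bowtie2, HOMER and the build mm10 (GRCm38), while their versions were not given in the sources used here. Per the file headers, the authors deposited a normalised signal per 500 bp region and library, as HOMER tags scaled to 10000000. The authors' deposited table of IL-33 against vehicle gives log2 fold changes and log2 group values, scores (mean level, standard error and test statistic) and a p-value with its adjusted p-value, and its tool was not given in the sources used here. It was read as deposited, and calls are an adjusted p under 0.05. Members and gene lists were chosen with earlier results of these data known. Named regions are the largest rises and falls, the smallest adjusted p per family, direction and gene list, the highest means, and all regions past the sex test. The sexes were compared with limma 3.58.1 in R 4.3.3 on log2(tags + 1), over all 53348 regions with a mean of at least 10 tags, with Benjamini-Hochberg adjustment, and the code was tested on simulated data. Reads were recovered from the scaling factors (whole within 0.01 tags for 100% of values) for edgeR 4.0.16 and DESeq2 1.42.0. Within a sex, each pair of libraries differed by more than sampling noise. Motifs were searched with Python 3.11.15. Alternatives are named in the closing section. The values of 2 called regions are not reported here.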

Additional observations from a re-analysis of the deposited data

Results flagged for a closer look

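Among 80 groups of 4 libraries examined, 1 held a library far from the other 3. Chance gives about 1 in 20 where 4 values scatter around 1 mean. Many of these groups instead split into high and low libraries, where a single far library is hardly found. The count therefore cannot be judged against that rate. At the MLT1B copy near Alg8 on chromosome 7, the member with the highest mean signal, female mouse 4 held 1094 tags (1093.6 before rounding), while the other 3 female libraries held 455 to 534 and the male libraries 330 to 462. Mouse 4 also held the largest share of its tags in regions, 47.3%, against 32.9 to 39.6% in the other libraries. The part of that share in the value was not tested.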

How the results depend on the processing

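In the authors' deposited table, the 334 rises and 240 falls became 219 and 145 at an adjusted p under 0.01, and 195 of the rises lie in regions found in both peak sets. Under 4 alternatives the median log2 fold change was -0.06 to 0.01. LTR regions held 7.21% of distal tags in the mean of 8 libraries, 7.43% with a distance to the TSS over 10000 bp, 7.94% without overlapping regions and 7.03% in regions of both peak sets. The 2 regions higher in female became 1 with no filter on low values, 0 with TMM rescaling, 0 with quantile normalisation, 0 with edgeR, 1 with DESeq2, 0 at an adjusted p under 0.01, and 0 to 9 when 1 library was left out (9 without female mouse 3, 2 without female mouse 4, 0 without any other). The cause of these shifts was not tested. Without overlapping regions 2 of the 8 LTRIS_Mm and LTRIS_Mus rises remained, and ERV1 rises numbered 23 in place of 41. No paired analysis was possible because male and female mice share no number and the inputs have no values here. Female libraries, at 2155209 to 4133042 tags, limit what regions of 1 to 3 reads can show.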
